A study of Homo sapiens with 7 samples.

Results

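The U5 snRNP proteins are 7 genes of a genome-wide CRISPR knockout screen, PRPF8, SNRNP200, EFTUD2, SNRNP40, DDX23, PRPF6 and CD2BP2. They were taken by symbol from the table of guide RNAs and make up 7 of the 19112 genes targeted. Each had 4 guide RNAs, so the set holds 28 of 76441 targeting guides, and all 28 entered the tests below unless a filter is named. Guides against 1 gene are not replicates of a condition, and the libraries are the replicates behind every SE. The rank test of genes below is different, since it takes the guides of a gene as independent.

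The screen looked for genes whose loss raised GFP from a splicing reporter in HCT116, a human colorectal carcinoma line. The reporter holds intron 4 of OGT, the O-GlcNAc transferase gene, and sits at the AAVS1 locus of a clonal line, so all libraries derive from the same engineered background. All cells received the Brunello knockout library (lentiviral Cas9 and guide RNA) at a multiplicity of infection of 0.3 and puromycin for 8 days from day 2. All cells were also given 1 µM thiamet G (TG), an inhibitor of the O-GlcNAc-removing enzyme OGA that lowers reporter GFP, for 24 hr from day 9 with fresh drug every 12 hr. Sorted libraries came from cells with high GFP on day 10 and input libraries from the same cells left unsorted, with 3 libraries of each. No cells without TG were analysed here. A further library measured the guide pool, which the series record describes as unselected cells and the methods as the DNA used to make the virus. The 3 screens are labelled biological replicates. The pilot was run at 100-fold and the repeats at 300-fold coverage, but the values do not show which library was the pilot, so libraries are numbered 1 to 3 by their place in the data.

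The U5 snRNP is the part of the spliceosome that holds the exon ends during both steps of splicing. It joins U4/U6 to form the tri-snRNP, and it stays in the catalytic spliceosome after U4 has left. PRPF8 is the large scaffold that lines the catalytic centre. The helicase SNRNP200 (Brr2) unwinds U4 from U6, the GTPase EFTUD2 (Snu114) takes part in activation and disassembly, and SNRNP40 is a WD40-repeat protein bound to them. DDX23 (Prp28) is the helicase that displaces U1 from the 5′ splice site. PRPF6 bridges U5 and U4/U6, and CD2BP2 binds the U5 particle before the tri-snRNP forms and is absent from the tri-snRNP.

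The guides are shown because every value below is a count of these sequences. Each is written 5′ to 3′ in lower case, followed in capitals by the PAM that Cas9 needs, as read from hg38. The coordinates span the 20 bases that the guide matches, and the codon named is the one at the cut, 3 bases from the PAM, in the GENCODE 44 canonical transcript. All 28 guides had 1 perfect genomic site with an NGG PAM, and all 28 cut in a coding exon. The cuts lay between 6.59% and 64.4% of the way along the coding sequence, with a median of 32.8%. The GC content of the guides was 40 to 75%.

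PRPF8 has 43 exons and 2335 codons, and its guides cut in exons 9, 15, 17 and 25.
PRPF8 codon 414 (chr17:1679640-1679659, plus strand): gacgggtgcgaccagagcgtAGG
PRPF8 codon 666 (chr17:1677158-1677177, minus strand): tccaggtcgacactcaaaggGGG
PRPF8 codon 802 (chr17:1676352-1676371, minus strand): ggacgggccttacatcacagCGG
PRPF8 codon 1313 (chr17:1661972-1661991, plus strand): ggggtgtagaacacaaccggGGG

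SNRNP200 has 45 exons and 2136 codons, and its guides cut in exons 6, 10, 13 and 18.
SNRNP200 codon 218 (chr2:96299403-96299422, minus strand): tgatgaagacgtatacggggAGG
SNRNP200 codon 397 (chr2:96297647-96297666, minus strand): gaaaccatggatctcgaccaGGG
SNRNP200 codon 511 (chr2:96296673-96296692, minus strand): gggtgctgggaagaccaacgTGG
SNRNP200 codon 797 (chr2:96291421-96291440, minus strand): ggttgaccgaacactcgtggAGG

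DDX23 has 17 exons and 820 codons, and its guides cut in exons 2, 5, 10 and 12.
DDX23 codon 54 (chr12:48845619-48845638, minus strand): tcaagggatagacgtcgaggAGG
DDX23 codon 144 (chr12:48839891-48839910, minus strand): ggcccagccattatccctggAGG
DDX23 codon 400 (chr12:48836588-48836607, plus strand): atgacctccaagatgtgtggGGG
DDX23 codon 499 (chr12:48834382-48834401, minus strand): accgctaggtatccgcactgTGG

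EFTUD2 has 28 exons and 972 codons, and its guides cut in exons 11, 14, 15 and 17.
EFTUD2 codon 303 (chr17:44872516-44872535, plus strand): gcagacgttacccaggagtgGGG
EFTUD2 codon 404 (chr17:44865002-44865021, minus strand): gcttggcatccacctgacgaAGG
EFTUD2 codon 471 (chr17:44863639-44863658, plus strand): agccacatgcccttacatcaGGG
EFTUD2 codon 539 (chr17:44860518-44860537, plus strand): gaacacggttcacctcgatgTGG

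SNRNP40 has 10 exons and 357 codons, and its guides cut in exons 2, 4 and 6, with a pair of guides in exon 4.
SNRNP40 codon 91 (chr1:31293216-31293235, minus strand): atttgaccgactgatatgtgAGG
SNRNP40 codon 132 (chr1:31289388-31289407, minus strand): agcatccacagataaaaccgTGG
SNRNP40 codon 177 (chr1:31289253-31289272, minus strand): tgacgatggcacagttaaggTGG
SNRNP40 codon 230 (chr1:31271449-31271468, plus strand): tgcatggcctctcatggtgtAGG

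PRPF6 has 21 exons and 941 codons, and its guides cut in exons 6, 7, 10 and 13.
PRPF6 codon 222 (chr20:63995360-63995379, plus strand): ggactaaacactccatacccAGG
PRPF6 codon 284 (chr20:63999108-63999127, plus strand): tccatgatcccgacacacggAGG
PRPF6 codon 398 (chr20:64010204-64010223, minus strand): ccgagtttggaacatgctcgAGG
PRPF6 codon 582 (chr20:64022851-64022870, minus strand): atggttcttctcgaagtacgCGG

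CD2BP2 has 7 exons and 341 codons, and its guides cut in exons 3, 4 and 5, with a pair of guides in exon 4.
CD2BP2 codon 50 (chr16:30354250-30354269, minus strand): acactctttggatagcgatgAGG
CD2BP2 codon 81 (chr16:30354017-30354036, plus strand): tccgaacacccccctcgctgGGG
CD2BP2 codon 105 (chr16:30353946-30353965, plus strand): gttcaggaagtagttgccatCGG
CD2BP2 codon 197 (chr16:30353570-30353589, plus strand): gagccggtccaggcgctgagGGG

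The input libraries held 27.8 to 29.5 M reads (M, 1000000), the sorted libraries 26.2 to 31.0 M and the guide pool 35.8 M. Guides without a read made up 0.173 to 0.227% of the input libraries and 7.26 to 10.8% of the sorted libraries. Across all guides, log2 counts correlated between input libraries at r = 0.86 to 0.92 and between sorted libraries at r = 0.32 to 0.35, so the sorted libraries varied far more. The reads carry no molecular identifiers, and a floor of 3 reads for a guide at 0 covers counting error only. As a check of the sort, guides against OGT itself were 37.6-fold higher in sorted cells than in input cells (log2 difference 5.23 ± 0.22, SE, n = 3 and 3), the first gene of the ranking. A guide count gives the share of cells that carried a guide. It does not show whether the gene was disrupted, and more cells past the gate cannot be told apart from more GFP per cell.

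Of the 7 U5 genes, 4 were enriched in sorted cells by robust rank aggregation (RRA), which asks whether the guides of a gene rank high together among all guides. These were SNRNP200 (adjusted p = 0.00126), DDX23 (0.00189), SNRNP40 (0.0183) and CD2BP2 (0.0231), with p-values adjusted over all genes by the Benjamini-Hochberg method and a threshold of 0.05. In the whole screen 60 genes, or 0.314%, were enriched by the same test. None of the 7 was depleted by RRA, also at an unadjusted p under 0.05 (the lowest was 0.193, for PRPF6), a call made after adjustment for 1 gene in the screen (0.00523%). Of the 28 guides, 17 had all 3 sorted values above all 3 input values, compared with 9.05% of targeting guides in the screen. These 17 included 14 of the 16 guides against the 4 enriched genes and 3 of the 12 guides against PRPF8, EFTUD2 and PRPF6. The RRA calls rest on these same guide values.

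Values below are normalised counts, the reads of a guide times 1 factor per library, and log2 differences are means over the guides of a gene of log2(normalised count + 1), sorted minus input. The median gene of the screen had a log2 difference of -0.56 on this scale, so 0 is not the level of an average gene here. The distance from that median is given beside each difference. That median depended on the summary. It was -0.30 with a pseudocount of 10, -0.11 with the median over guides and 0.03 in edgeR on summed reads. A fold change is that of this mean difference and understates the change of low guides. The SE comes from limma with 3 libraries a group. By limma the gene means of none of the 7 U5 genes passed the threshold after adjustment, a level reached upward by 3 genes or 0.0157% of the screen. At an unadjusted p under 0.05, 4 of the 7 did, compared with 1.96% of genes upward in the screen, and they were the same 4 genes that RRA called. RRA ranks limma p-values of the same guides in the same libraries, so this match is no separate evidence. The 3 sorted gene means lay above all 3 input means for 5 of the 7, against 4.56% of genes.

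**Figure D1:**
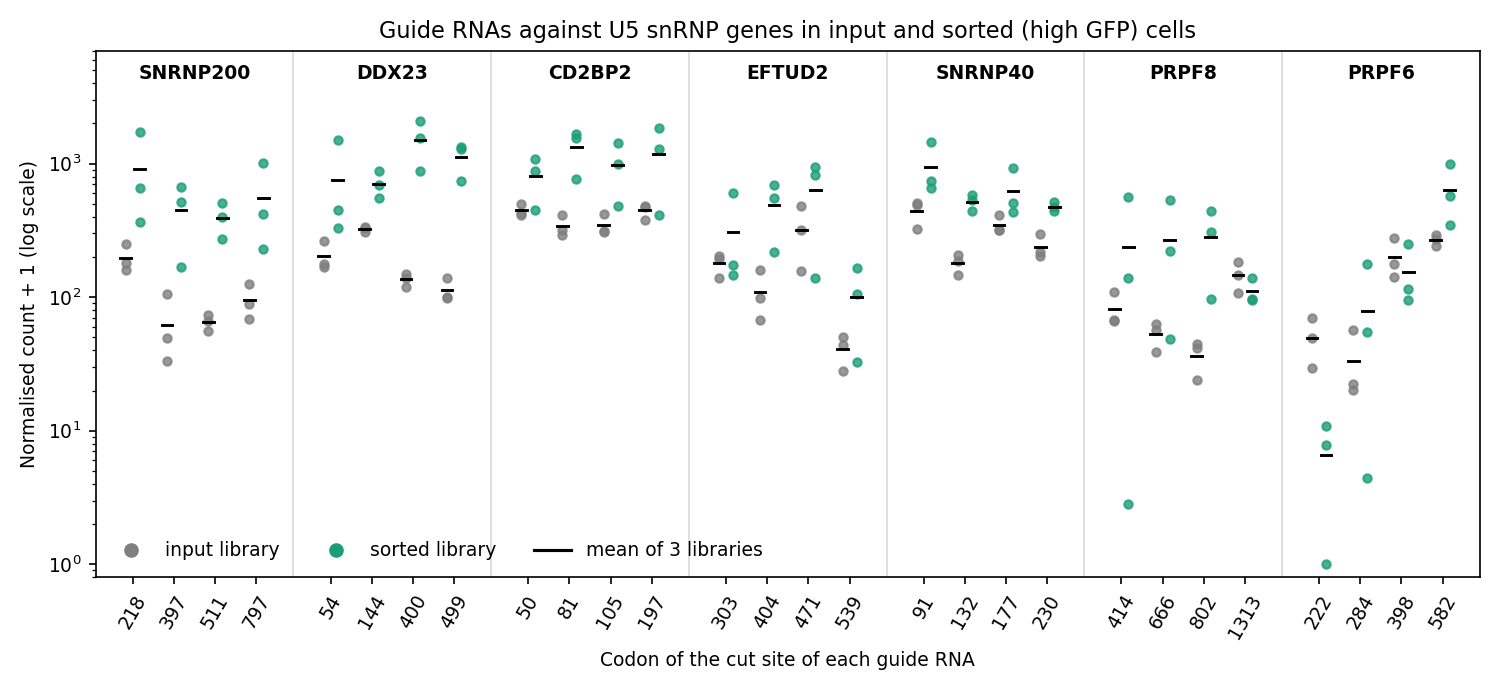
Normalised count plus 1 (log axis) of each guide RNA in the 3 input libraries (grey) and the 3 sorted libraries (green), by gene and by the codon at the cut; black bars are means of the 3 libraries. All 4 guides of SNRNP200, DDX23 and SNRNP40 have every green point above every grey point, whereas PRPF8 and PRPF6 each have 1 such guide.

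The helicases SNRNP200 and DDX23 had the largest differences of the U5 genes. Summed over its 4 guides, SNRNP200 had normalised counts of 403, 360 and 482 in input libraries 1 to 3, and of 1160, 2249 and 3507 in sorted libraries 1 to 3. The lowest sorted library was above the highest input library. The mean log2 difference was 2.41 ± 0.48 (5.30-fold; SE, n = 3 and 3), which lies 2.97 above the median gene. SNRNP200 ranked 10 of all genes by RRA, and its limma adjusted p was 0.174.

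The 4 guides of SNRNP200 agreed in direction and size. At codon 397 the guide had 32.1, 48.1 and 104 normalised counts in input and 166, 666 and 517 in sorted cells. At codon 511 the counts were 55.1, 65.7 and 72.9 in input and 399, 503 and 272 in sorted cells. All 3 sorted values exceeded all 3 input values for each of the 4 guides, and the log2 differences ran from 1.95 at codon 218 to 2.80 at codon 397, an SD over guides of 0.36. The RRA call of SNRNP200 was lost without sorted library 2 (adjusted p = 0.0764) or without sorted library 3 (0.118).

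DDX23, the helicase that separates U1 from the 5′ splice site, had summed normalised counts of 771, 833 and 711 in input and of 2953, 5453 and 3875 in sorted libraries. The groups were far apart, with every sorted library more than 3 times any input library. The mean log2 difference was 2.35 ± 0.27 (5.09-fold), 2.91 above the median gene, with a limma adjusted p of 0.0829 and rank 13 by RRA. Of the 4 enriched U5 genes, DDX23 was the only one whose RRA call held whichever sorted or input library was left out, with adjusted p from 0.00024 to 0.0138.

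The guides of DDX23 fell into a strong and a weak pair. The guide at codon 400 had normalised counts of 148, 139 and 119 in input and of 887, 2083 and 1562 in sorted cells, a log2 difference of 3.39 ± 0.37 (10.5-fold). At codon 499 the counts were 137, 98.9 and 98.0 in input and 743, 1322 and 1292 in sorted cells, a log2 difference of 3.29 ± 0.38 (9.78-fold). These were the only U5 guides that passed limma on single guides, both with adjusted p = 0.0376, a level reached upward by 0.0917% of guides tested. Upstream, the guide at codon 144 gave a log2 difference of 1.10 ± 0.29 and the guide at codon 54 one of 1.61 ± 0.58. At codon 54 the sorted values were 445, 1500 and 331, so sorted library 2 carried most of that difference, but all 3 still exceeded the input values of 177, 262 and 167. Only the guides at codons 54 and 144 remain when guides with a mean input under 200 are left out, and DDX23 is then no longer called (RRA adjusted p = 0.395).

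SNRNP40, the WD40 protein, had a smaller difference with little spread. Its summed normalised counts were 1050, 1261 and 1303 in input and 2118, 2714 and 2863 in sorted libraries. Each sorted library held more than every input library. The mean log2 difference was 1.09 ± 0.22 (2.13-fold), 1.65 above the median gene, and the 3 sorted libraries stood 0.89, 1.23 and 1.15 above the mean of the inputs. The limma adjusted p was 0.174 and the RRA rank was 37.

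All 4 guides of SNRNP40 had every sorted value above every input value. Their log2 differences ran from 0.77 at codon 177 to 1.53 at codon 132, and their SD of 0.32 was the lowest of the 7 genes. The guide at codon 132 had normalised counts of 205, 146 and 186 in input and of 582, 532 and 444 in sorted cells. The RRA call was lost without sorted library 2 (adjusted p = 0.311), without sorted library 3 (0.155), and with only the 3 guides of mean input of at least 200 (0.298).

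CD2BP2, the U5 protein that is released before the tri-snRNP forms, had the most abundant guides of the set. Its summed normalised counts were 1403, 1691 and 1633 in input and 2103, 5248 and 5459 in sorted libraries. Sorted library 1 lay close to the inputs and the other two well above them. The mean log2 difference was 1.29 ± 0.35 (2.45-fold), 1.85 above the median gene, with differences of 0.40, 1.72 and 1.77 for sorted libraries 1, 2 and 3. The limma adjusted p was 0.205 and the RRA rank 41.

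The guide of CD2BP2 at codon 81 had normalised counts of 291, 411 and 317 in input and of 761, 1651 and 1546 in sorted cells, a log2 difference of 1.89 ± 0.36 (limma adjusted p = 0.0842). At codon 105 the difference was 1.37 ± 0.42. At codons 81 and 105, both in exon 4, the groups did not overlap. At codons 50 and 197 they overlapped, since sorted library 1 held 446 and 414 normalised counts against inputs of up to 495 and 482. The RRA call of CD2BP2 was lost without sorted library 2 (adjusted p = 0.43) or 3 (0.578), and with guides of mean input of at least 200 only, which kept all 4 of its guides (0.063).

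**Figure D2:**
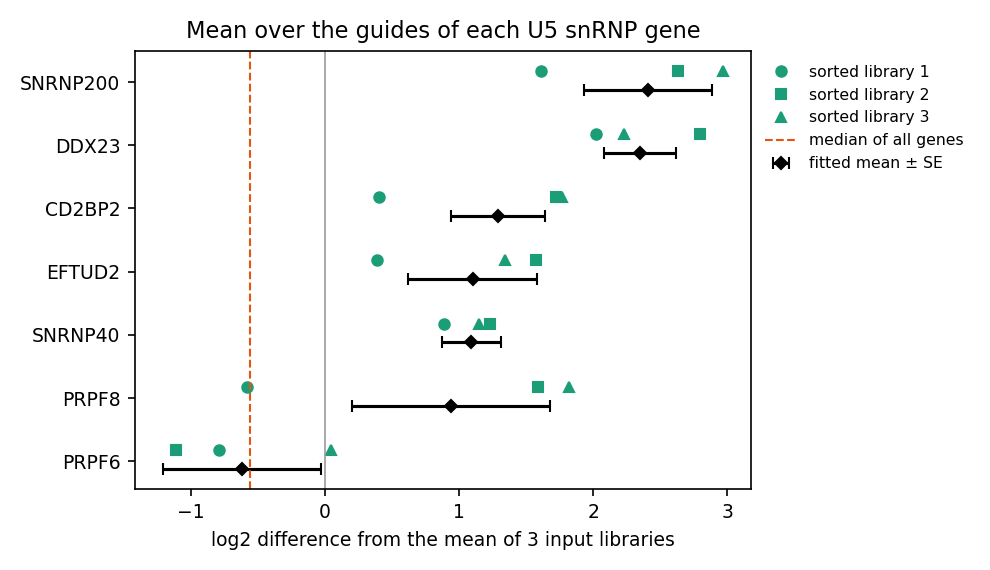
Log2 difference of each sorted library from the mean of the 3 input libraries, averaged over the 4 guides of each U5 gene (green symbols), with the limma mean ± SE (black) and the median of all genes at -0.56 (orange dashed line). Sorted library 1 is the lowest of the 3 for every gene except PRPF6, which lies around the median of all genes.

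EFTUD2, the GTPase, did not pass RRA (adjusted p = 0.668, rank 347). Its summed normalised counts were 489, 730 and 708 in input and 992, 1942 and 1658 in sorted libraries. The gene means of the groups did not overlap, but by a narrow margin. The lowest sorted mean was 7.29 (log2, library 1) and the highest input mean 7.24 (library 2). The mean log2 difference was 1.10 ± 0.48 (2.14-fold), 1.66 above the median gene, with a limma p of 0.0535 before and 0.322 after adjustment. All 4 guides had positive differences, from 0.50 at codon 303 to 2.10 at codon 404, but only the guide at codon 404 separated the groups. That guide had normalised counts of 97.9, 159 and 65.9 in input and of 217, 689 and 555 in sorted cells. At codon 303 sorted library 1 alone was high, at 605 against 145 and 173 in the other two, with inputs of 138 to 203. At codon 539 all values were low, at 26.9 to 49.0 in input and 31.7 to 163 in sorted cells. The difference of EFTUD2 from SNRNP40, which had a like mean and was called, was 0.01 with a joint SE of 0.53.

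PRPF8, the scaffold, had the most divergent libraries among the genes with a positive mean. Its summed normalised counts were 327, 300 and 311 in input and 452, 1020 and 1207 in sorted libraries. On the log2 scale sorted library 1 lay 0.58 below the mean of the inputs (-0.58). Sorted libraries 2 and 3 lay 1.59 and 1.82 above it, so the groups overlapped on this scale. The summed counts of the groups did not overlap. In sorted library 1 the guide at codon 414 had 1.81 normalised counts, against a mean input of 80.4. The mean log2 difference was 0.94 ± 0.74 (1.92-fold), 1.50 above the median gene, and neither limma (adjusted p = 0.511) nor RRA (1.0) called it.

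The guides of PRPF8 disagreed. At codon 802 the normalised counts were 40.3, 22.8 and 43.4 in input and 308, 96.0 and 439 in sorted cells, a log2 difference of 2.75 ± 1.25 without overlap. At codon 414 they were 65.8, 109 and 66.8 in input and 1.81, 565 and 138 in sorted cells, with 2 reads behind the lowest value. At codon 666 the difference was 1.80 ± 1.32 with overlap. At codon 1313, the most downstream of the PRPF8 cuts, the inputs were 183, 107 and 146 and the sorted values 95.0, 137 and 96.3, so sorted libraries 1 and 3 lay below all inputs and sorted library 2 among them.

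PRPF6 was the only U5 gene with a negative mean log2 difference, -0.62 ± 0.59 (0.651-fold), and this sign changed with the summary, to 0.50 in edgeR on reads summed over guides and to 1.12 with the 1 guide of mean input of at least 200. It lay 0.06 below the median gene, a distance of -0.06, and passed no test (RRA adjusted p = 1.0 for enrichment and 0.977 for depletion, limma adjusted p = 0.576). The summed normalised counts were 637, 542 and 460 in input and 877, 1097 and 648 in sorted libraries. The sums were thus higher in sorted cells while the mean of logs was lower, as 1 guide supplied most of the sorted reads.

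That guide, at codon 582, had normalised counts of 293, 240 and 271 in input and of 574, 993 and 346 in sorted cells, a log2 difference of 1.12 ± 0.42 without overlap. The guide at codon 222 went the other way, with 48.5, 69.2 and 28.6 in input and 0, 6.86 and 9.9 in sorted cells. It was the only U5 guide with all sorted values below all inputs, and its 0 in sorted library 1 allows up to 2.71 normalised counts, the worth of 3 reads there. At codon 284 the sorted values were 54.3, 3.43 and 177, which spanned the inputs of 19.1 to 56.0, and at codon 398 the groups overlapped. The SD over the 4 guides was 1.97, the largest of the 7 genes.

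In the order SNRNP200, DDX23, CD2BP2, EFTUD2, SNRNP40, PRPF8 and PRPF6, most neighbours lay within their joint SE of each other. SNRNP200 and DDX23 differed by 0.06 (joint SE 0.55), and CD2BP2, EFTUD2, SNRNP40 and PRPF8 followed each other at gaps of 0.20 or less with joint SEs of 0.53 to 0.77. DDX23 stood 1.05 above CD2BP2 (joint SE 0.44). PRPF8 stood 1.56 above PRPF6 (joint SE 0.95). The joint SE takes the genes as independent, although all were measured in the same libraries, and these gaps were not tested.

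Before the sort, most U5 guides stood lower in input cells than they did in the pool. Each log2 ratio was set relative to the median targeting guide, and with 1 library of the pool there was no test. The median over the 28 guides was -0.83, against 0.02 for all targeting guides and 0.32 for non-targeting guides. Of the 28 guides, 22 were lower in input cells and 11 were at least 2-fold lower, compared with 7.23% of targeting guides in the screen. By the mean over guides, 4 of the 7 genes were at least 2-fold lower, compared with 1.53% of genes.

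PRPF8 had the lowest level, at -1.86 ± 0.06 (SD, n = 3 input libraries), or 0.276 times the pool. Only 0.147% of genes lay lower. DDX23 followed at -1.55 ± 0.13, EFTUD2 at -1.21 ± 0.30, SNRNP200 at -1.03 ± 0.32 and PRPF6 at -0.89 ± 0.38. SNRNP40 (-0.33 ± 0.12) and CD2BP2 (-0.09 ± 0.14) were nearest the median guide, with 17.4% and 39.5% of genes below them. The genes enriched in the sort thus included DDX23, at 0.342 times its pool level before the sort, and CD2BP2, at 0.936 times.

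Within genes the level before the sort varied by guide. For PRPF8 the guide at codon 802 stood at -3.42 ± 0.49, with 558 reads in the pool, whereas the guide at codon 1313 stood at 0.24 ± 0.39. For PRPF6 the guides at codons 222 and 284 stood at -1.25 and -2.60, and those at codons 398 and 582 at 0.06 and 0.25. For DDX23 the guides at codons 400 and 499, which were the most enriched in the sort, were also the scarcest before it, at -2.06 ± 0.17 and -2.48 ± 0.27, against -0.92 and -0.74 at codons 54 and 144. Sorted over input and input over pool both hold the input libraries, with opposite sign, so the measures are set side by side only. Of the 11 guides at least 2-fold lower in input cells, 5 had all sorted values above all inputs (10.9% of such guides in the screen). Of the other 17 guides, 12 did, beside 9.05% of all targeting guides in the screen. The difference between these counts was not tested.

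The ratio of sorted cells to the guide pool does not use the input libraries. By this ratio 15 of the 28 guides lay above the pool in all 3 sorted libraries, compared with 15.1% of targeting guides. Another 3 lay above it in none, compared with 19.4%, and these were those of EFTUD2 at codon 539 and of PRPF6 at codons 222 and 284. The gene means were 1.26 ± 0.70 for SNRNP200, 1.08 ± 0.76 for CD2BP2, 0.68 ± 0.36 for DDX23 and 0.64 ± 0.15 for SNRNP40 (SD, n = 3 sorted libraries). They were -0.23 ± 0.59 for EFTUD2, -1.05 ± 1.33 for PRPF8 and -1.68 ± 0.65 for PRPF6. The median of all genes was -0.73, and 17.9% of genes lay above 0. The 4 U5 genes above 0 were also called by RRA, which uses the same sorted libraries, so this is no separate evidence. At codon 400 of DDX23 the level was -2.06 in input and 1.21 ± 0.59 in sorted cells, and at codon 802 of PRPF8 it was -3.42 in input and -0.79 ± 1.19 in sorted cells, still below the pool.

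**Figure D3:**
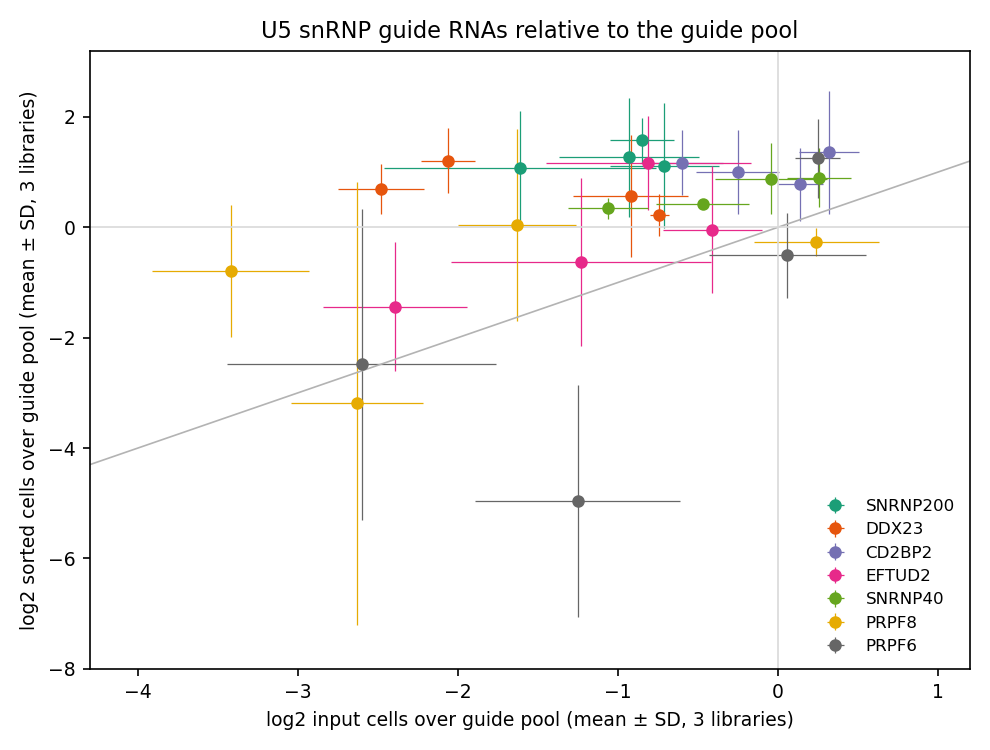
Log2 ratio of sorted cells to the guide pool (vertical) against that of input cells to the guide pool (horizontal) for each of the 28 guides, relative to the median targeting guide; points are means and bars SDs over 3 libraries, the diagonal marks equal levels in sorted and input cells, and colours mark genes. Points of DDX23 at codons 400 and 499 lie far left and above 0, at input levels of -2.06 and -2.48, and the PRPF6 guide at codon 222 lies far below the diagonal.

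The U5 genes were set beside partners of the same pathway and an essential complex outside splicing, by counts and medians with no test of the lists. Of 8 partners in U4/U6 and the tri-snRNP, 1 was enriched by RRA, SNRNP27 (log2 difference 0.80 ± 0.23, adjusted p = 0.0402), and the median difference was 0.46, or 1.01 above the median gene. The call of SNRNP27 was lost on leaving out any 1 library except input library 3 (adjusted p = 0.0558 to 0.496). It was also lost with scaling to total reads (RRA adjusted p = 0.0602), with guides of mean input of at least 200 (0.436) and with edgeR in place of limma (0.0515). TXNL4A, the small U5 15K protein, was not analysed here. Of the 7 Sm proteins, which form the ring on U5 and other snRNAs, 1 was enriched, SNRPD1 (1.73 ± 0.49, 0.00443), with a median of 1.02. Of 8 factors that assemble U5, 0 were enriched by RRA and 1 had an unadjusted limma p under 0.05, with a median of 0.22. The Prp19 core complex, which joins the spliceosome as it activates, had 3 of 6 enriched and a median of 1.57. These were PRPF19, a ubiquitin ligase (2.29 ± 0.35, 0.0025), BCAS2 (2.04 ± 0.28, 0.00408) and PLRG1 (1.84 ± 0.40, 0.00439). Without sorted library 2, 0 of the Prp19 core and 0 of the Sm proteins were called, and without sorted library 3, only BCAS2 was (0.0389), beside DDX23 alone of the U5 genes in both cases. Other settings added calls. With edgeR in place of limma, 1 assembly factor and 2 Sm proteins were called, beside 4 U5 genes. Without sorted library 1, 4 of the Prp19 core and 2 Sm proteins were called, also beside 4 U5 genes. The median of the 7 U5 genes was 1.10, or 1.66 above the median gene, and 6 of 7 lay above it.

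Proteasome subunits were listed as an essential complex outside splicing. Whether loss of essential genes bears on the U5 differences was not tested. Their median level in input cells over the pool was -0.73, beside -1.03 for the U5 genes and -0.01 for all genes. In the sort, the median log2 difference of the 31 proteasome genes was -1.67, and 7 of 31 lay above the median gene. None was enriched by RRA or had an unadjusted limma p under 0.05 upward. Of their 124 guides, 6 had all sorted values above all inputs, against 17 of the 28 U5 guides, 14 of 24 for the Prp19 core, 13 of 28 for the Sm proteins, 10 of 32 for the tri-snRNP partners and 9 of 32 for the assembly factors.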

How the data were processed

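Per the labels, the authors used FastQC 0.11.9 for quality, cutadapt 3.3 for trimming and MAGeCK, without a version, for testing (the paper's resource list names other versions). The deposited guide table holds 3 normalised counts per guide for sorted and for input cells, and another deposited table holds the raw count of each guide in the pool. A gene table holding the authors' own comparison (scores, p-values, fold changes) was not used. Divided by 1 step per library, 100% of values up to 200 reads came out whole within 0.1. Of 77441 guides, 53 at 0 in all 6 libraries were left out. Guides were matched to hg38 with GENCODE 44.

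The limma test (version 3.58.1 under R 4.3.3, lmFit, then eBayes with a trend on the mean level) used log2(normalised count + 1) of each guide, or its mean over a gene. RRA (alpha 0.25) ran on the one-sided guide p-values with the exact distribution of its score, which treats guides as independent. p-values were adjusted over all genes or guides. For ratios to the pool, libraries were scaled to the median targeting guide with at least 30 pool reads, with a pseudocount of 1. Alternatives used edgeR 4.0.16 and DESeq2 1.42.0 on recovered reads, other pseudocounts, scalings, filters, alphas and gene summaries. All 7 members and their guides are named, with OGT and, from each other list, at most 4 genes that passed RRA. Members and lists were chosen with earlier results of these data known. The methods were also run on simulated data with independent noise for each guide. That run does not cover guides of a gene that vary together, or the loss of guides seen in sorted cells.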

Additional observations from a re-analysis of the deposited data

How the results depend on the processing

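The 4 enriched U5 genes were called under every other pseudocount, scaling, alpha, the filter at a mean input of 30, edgeR, and without any input library or sorted library 1. With guides of mean input of at least 200, which leaves 11 of the 28 guides and none of PRPF8 or SNRNP200, 0 were called (19 of all genes, against 60). Leaving out 1 library gave 1 to 4, with DDX23 alone called without sorted library 2 (19 of all genes) or 3 (20). In the main analysis 528 of all guides passed the limma threshold in either direction, and 71 of these were higher in sorted cells. The counts of all guides below are not split by direction. The count of single U5 guides past the threshold, 2 (528 of all guides), became 0 with a pseudocount of 10 (7 of all guides), 0 with the filter at 200 (4), 0 in edgeR (which called 0 of all guides, with 16 U5 guides at an unadjusted p under 0.05), 12 in DESeq2 (which called 2338 of all guides) and 0 to 5 on leaving out 1 library, the highest without sorted library 1 (2538 of all guides) and 0 without sorted library 2 (0 of all guides, with 16 U5 guides at an unadjusted p under 0.05). The count of U5 gene means past the threshold, 0 (3 of all genes), became 1 with a pseudocount of 10 (6 of all genes), 1 with the median over guides (7) and 1 in edgeR on summed reads (52), each time DDX23, and 0 to 4 on leaving out 1 library, with SNRNP200, SNRNP40, DDX23 and CD2BP2 past it without sorted library 1, when 1174 of all genes were. The cause of these changes was not tested. The median log2 difference of the 7 genes stayed between 0.88 and 1.70. Its distance from the median gene, 1.66, ran from 1.23 in edgeR on summed reads to 2.30 without sorted library 1. The difference of PRPF6 reversed to 1.12 with the filter at 200 and to 0.50 in edgeR on summed reads. In edgeR on summed reads the median gene moved from -0.56 to 0.03, and PRPF6 lay 0.47 above it. Scaled to non-targeting guides, the median level of U5 guides in input cells over the pool was -1.15 in place of -0.83, and that of all guides -0.30, so the distance of -0.85 was the same. Leaving out 1 input library gave -0.90 to -0.77. No paired analysis was possible because the deposited columns carry no replicate numbers. In PRPF8 and PRPF6, 4 sorted values rested on under 10 reads.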
